A study of Rattus norvegicus with 8 samples.

Results

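The miR-378 hairpin gives rise to 2 mature miRNAs, rno-miR-378 from its 3′ arm and rno-miR-378* from its 5′ arm, and these are 2 of the 620 rows in the deposited rat kidney table. The rows were taken by name, and the hairpin was chosen by measured values, namely the abundance of miR-378 and its lower level in the rats treated with aristolochic acid (AA). The difference between the groups is therefore described below for both arms and was not tested. A further row, with the lower-case name rno-mir-378*, held 1 count in control rat 4 and none in the other 7 rats. It is 1 of 61 rows with names of that form and was not taken as a member.

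AA, which occurs in plants of the genus Aristolochia, damages the kidney and causes tumours. All 8 animals were male Big Blue rats of the Fisher 344 strain, which carry a transgene used to score mutations. Treatment began at 6 weeks of age, and the labels give an age of 18 weeks at the end. The 4 AA-treated rats received the sodium salt of AA by gavage at a dose of 10.0 mg/kg, given in a volume of 4 ml/kg on 5 occasions per week. The 4 control rats were given saline (0.9%) equally often. The protocol gives 12 weeks of treatment for all rats, whereas the sample descriptions give 12, 13, 14 and 15 weeks for the rats numbered 1 to 4 of both groups. One small RNA library was sequenced per rat.

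The hairpin is embedded in Ppargc1b, the gene of the coactivator PGC-1β, which promotes mitochondrial biogenesis and fatty acid oxidation. The 2 arms are known as regulators of the same processes. Described targets of miR-378 include Crat, a mitochondrial enzyme of acyl-carnitine metabolism. Those of miR-378* include the nuclear receptor Esrrg and the transcription factor Gabpa. The miRNA is abundant in skeletal muscle, heart and brown fat, tissues rich in mitochondria, and the tubule epithelium of the kidney is another tissue that depends on mitochondrial oxidation.

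The mature sequences are shown because the 2 arms have separate seeds, so that counts of one arm cannot stand for the other. They are from RefSeq (GRCr8 build, minus strand), where the arms are named rno-miR-378a-3p and rno-miR-378a-5p, and capitals mark the seed at bases 2 to 8.
miR-378: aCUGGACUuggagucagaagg
miR-378*: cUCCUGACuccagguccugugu
The arms are 21 and 22 bases long, with a GC content of 52.4% and 59.1%. None of the other mature miRNAs among the 724 RefSeq entries shared a seed with either arm. Mir378 lies within the span of Ppargc1b in the same annotation. The annotation lists 2 miR-378 genes, and the second, Mir378b, has no row of its own in the deposited table. Its sequence was not compared here, so that the statement on shared seeds does not cover Mir378b. How reads that match both genes were counted is not given in the sources used here.

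miR-378 was counted 4159341, 4039419, 3612302 and 3977140 times in control rats 1 to 4, and 2269120, 2700678, 2930206 and 2815314 times in AA-treated rats 1 to 4. The raw counts of the groups did not overlap, although the libraries were of similar size, with totals of 13736874 to 15525397 in the controls and 13412373 to 15616670 after AA treatment. At this depth, counting error was far smaller than the difference between rats.

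As a share of all miRNA counts, miR-378 took 27.3%, 27.5%, 23.3% and 29.0% in control rats 1 to 4. The share was 16.9%, 17.8%, 21.2% and 18.0% in AA-treated rats 1 to 4. The exact Clopper-Pearson 95% intervals, which cover counting error only since reads were not corrected for PCR copies, were narrow, for example 23.2% to 23.3% in control rat 3 and 21.19% to 21.23% in AA-treated rat 3. These are the control rat with the lowest and the AA-treated rat with the highest share, and they mark the smallest distance between the groups. On average, miR-378 took 26.8% ± 2.44 (SD, n = 4) of a control library and 18.5% ± 1.88 (SD, n = 4) of an AA-treated library.

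Counts were then divided by median-of-ratios size factors, which compare each library with the others miRNA by miRNA, and the results are called normalized counts. The normalized count of miR-378 was 4323300, 4436461, 3424724 and 4859410 in control rats 1 to 4, and 2546308, 2107715, 2889576 and 2292583 in AA-treated rats 1 to 4. Control rat 3 was lowest among the controls and AA-treated rat 3 highest among the treated rats, and each control rat was still at least 1.19-fold above each AA-treated rat. The mean was 4260974 ± 603357 in the control group and 2459046 ± 338681 in the AA group (SD, n = 4 each), a 1.73-fold difference. Among the other 618 miRNAs, 6.47% likewise had all 4 AA-treated rats below all 4 control rats. The coefficient of variation of miR-378 was 14.2% among the control and 13.8% among the AA-treated rats. RNA came from a piece of kidney tissue with all its cell types, so that fewer cells with miR-378 and less miR-378 per cell cannot be told apart, and which region was taken is not given in the sources used here.

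**Figure D1:**
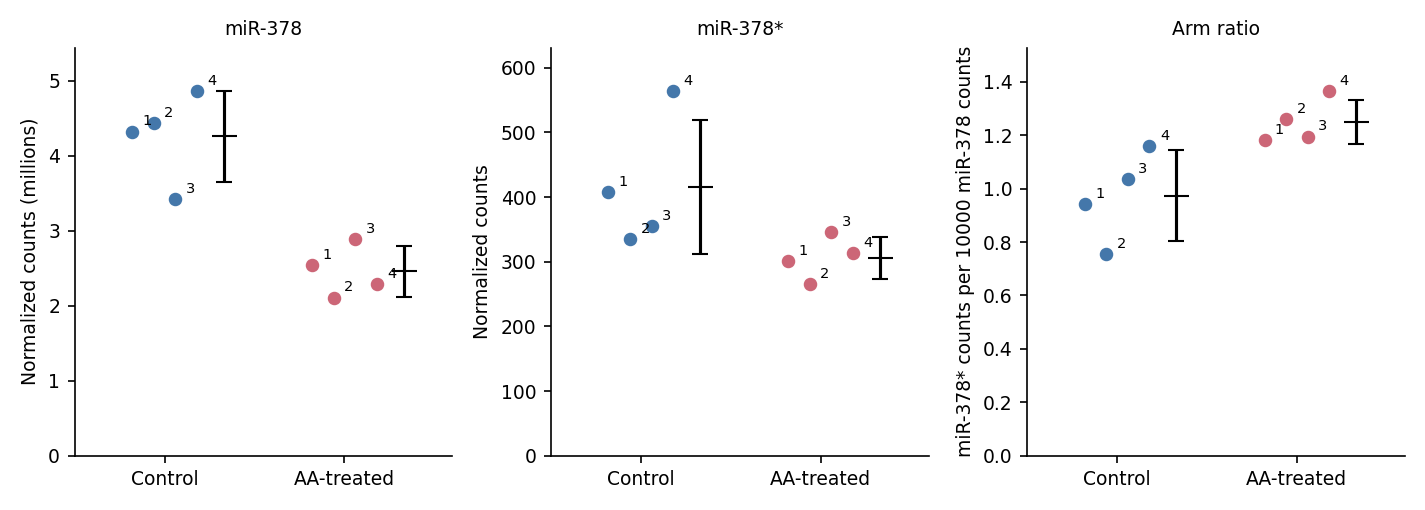
Normalized counts of miR-378 (left) and miR-378* (middle), and counts of miR-378* per 10000 counts of miR-378 (right), with 1 point per rat labelled by rat number and bars for the mean and SD of 4 rats. The groups are apart for miR-378 and for the ratio, whereas for miR-378* AA-treated rat 3 (345 normalized counts) lies above control rat 2 (335).

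miR-378* was far rarer. It was counted 392, 305, 374 and 461 times in control rats 1 to 4, and 268, 340, 350 and 384 times in AA-treated rats 1 to 4. The raw counts overlapped, since AA-treated rats 2, 3 and 4 each exceeded control rat 2. In normalized counts, the control rats had 407, 335, 355 and 563 and the AA-treated rats 301, 265, 345 and 313. Control rat 4 stood highest, and AA-treated rat 3 was above control rat 2, so that the groups overlapped. The mean was 415 ± 103 in the control and 306 ± 32.95 in the AA group (SD, n = 4 each), or 1.36-fold apart. Without control rat 4 the fitted log2 fold change was -0.27, or 1.20-fold, instead of -0.44.

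The ratio of the arms within a library does not depend on any scaling between libraries. Per 10000 counts of miR-378, there were 0.942, 0.755, 1.04 and 1.16 counts of miR-378* in control rats 1 to 4, and 1.18, 1.26, 1.19 and 1.36 in AA-treated rats 1 to 4. The lowest AA-treated rat, rat 1, was above the highest control rat, rat 4, by a factor of 1.02. Their exact 95% intervals, 1.06 to 1.27 for control rat 4 and 1.04 to 1.33 for AA-treated rat 1, overlapped nearly in full. The mean was 0.973 ± 0.170 in the control and 1.25 ± 0.0835 in the AA group (SD, n = 4 each). The star arm ratio was higher in all 4 AA-treated rats than in all 4 control rats for 8.6% of 93 other hairpins with both arms at a mean of at least 10 normalized counts. Only hairpins whose arms carry a plain and a starred name were compared, and those with arms named by their 5′ or 3′ position were not. The log2 difference of the miR-378 arm ratio was 0.38, and 40 of 94 hairpins, miR-378 included, differed by at least as much in either direction.

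The arms were among the most unequal of the hairpins compared. The factor a hairpin can reach is limited by the counts of its more abundant arm, and miR-378 was chosen for its abundance. With counts summed over the control rats and 1 count added to each sum, miR-378 outnumbered miR-378* by a factor of 10299. The median factor was 61.6 over 144 hairpins whose arms were listed by a plain and a starred name, as for miR-378, and of which at least 1 arm had a mean of 10 or more normalized counts. Only miR-101b, miR-451 and miR-146b were more unequal among these hairpins. By counts within a library, miR-378* ranked 151st to 167th in control and 173rd to 184th in AA libraries.

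miR-378 was the most abundant miRNA in each control library. It exceeded the next, miR-143, a miRNA of smooth muscle and other mesenchymal cells, by factors of 1.699, 1.26, 1.27 and 1.64 in control rats 1 to 4. In AA-treated rats 1 and 2, miR-143 was first and miR-378 second, at 0.957 and 0.975 times its counts. In AA-treated rat 3, miR-378 stayed first, at 1.41 times miR-143. In AA-treated rat 4, the first place was taken by miR-21, a miRNA linked to injury and cancer in many tissues, and miR-378 had 0.937 times its counts.

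**Figure D2:**
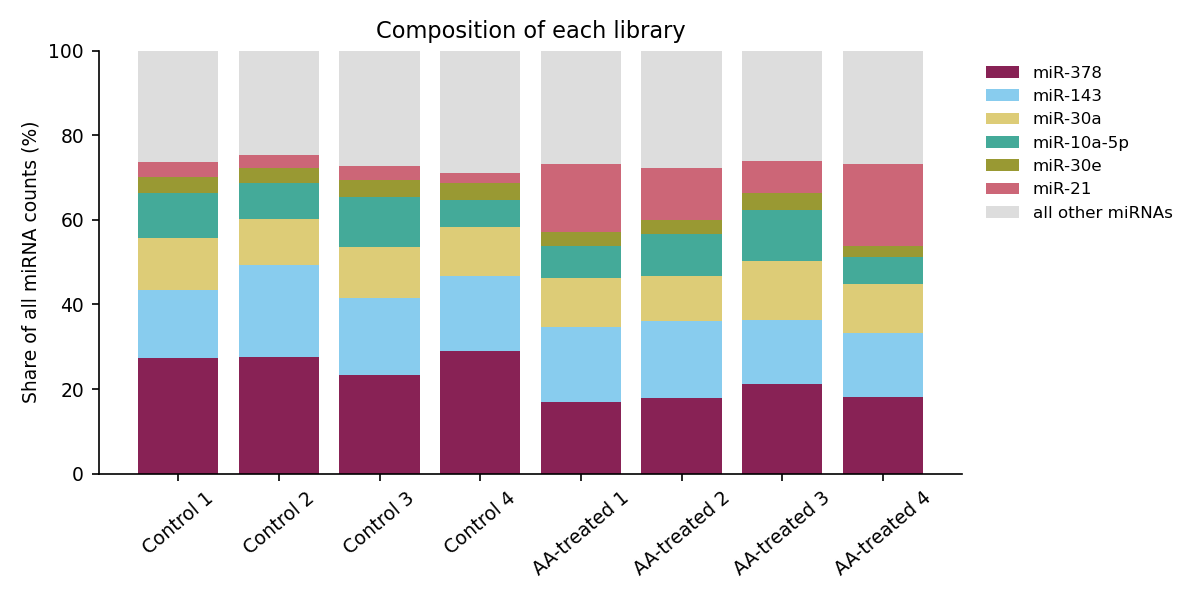
Share of all miRNA counts in each of the 8 libraries taken by the 5 miRNAs with the highest mean share in the control rats, by miR-21 and by all other miRNAs. The miR-378 segment covers 23.3% to 29.0% of control libraries and 16.9% to 21.2% of AA libraries, while that of miR-21 covers 2.51% to 3.39% and 7.43% to 19.2%.

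Since shares of a library sum to a fixed total, the space given up by one abundant miRNA is filled by others. The mean share of miR-378 differed by -8.27 percentage points, AA-treated minus control, and that of miR-21 was 3.01% ± 0.392 in the control and 13.7% ± 5.06 in the AA group (SD, n = 4 each). Together the 2 miRNAs took 29.8% ± 2.22 of a control and 32.2% ± 3.80 of an AA-treated library (SD, n = 4 each), with overlapping groups. Outside miR-378, 9759734 to 11913095 counts remained in control libraries and 10884406 to 12801356 in AA libraries. With miR-21 left out of the total, the share of miR-378 was 27.6% ± 2.45 in the control and 21.4% ± 1.43 in the AA group (SD, n = 4 each), and the groups did not overlap.

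Ratios within a library show the same miRNA against single partners. The ratio of miR-378 to miR-30a, an abundant miRNA of the nephron, was 1.94 to 2.58 in the control and 1.46 to 1.65 in the AA-treated rats. Relative to let-7f, the ratio was 10.6 to 20.2 in the control and 4.97 to 9.06 in the AA-treated rats. Relative to miR-21, it was 7.17 to 11.5 and 0.937 to 2.85. All 4 control rats were above all 4 AA-treated rats in these ratios and in the ratio to miR-30d, whereas the groups overlapped in the ratios to miR-143, miR-10a-5p, miR-30e, miR-192 and miR-101a. For miR-192, a miRNA of kidney tubules, the ratio was 4.32 in control rat 4 and 9.51 to 12.2 in the other controls. It was 5.90 to 10.2 in the AA-treated rats. Which partner is used therefore decides whether the groups separate.

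**Figure D3:**
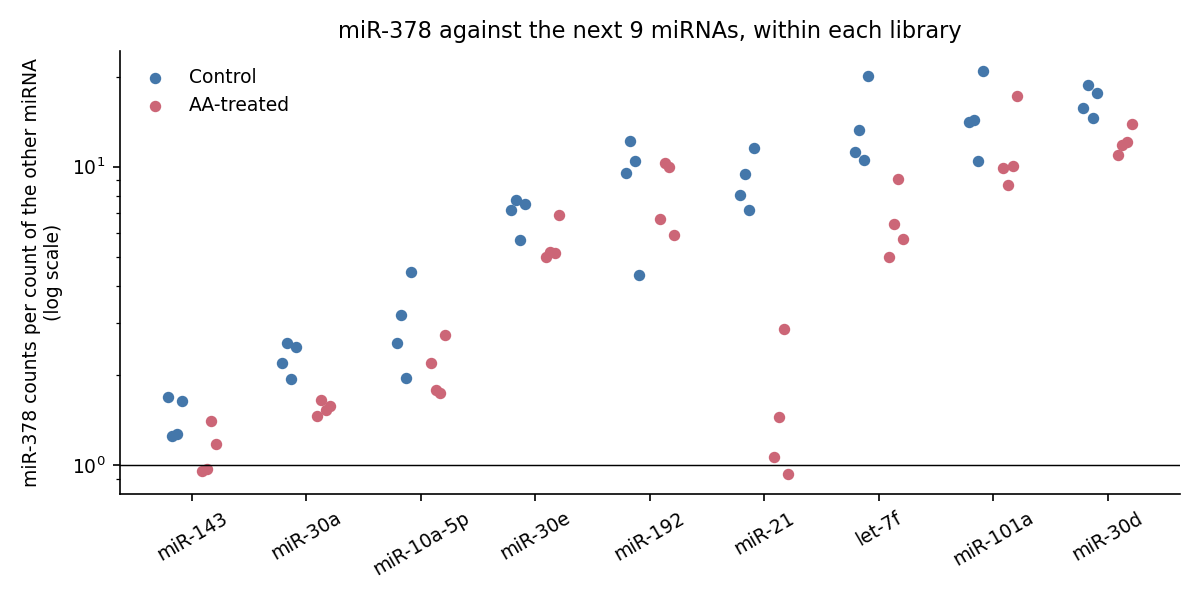
Counts of miR-378 per count of each of the next 9 miRNAs by mean share in the control rats, on a log scale, with 1 point per rat. The groups are apart for miR-30a, miR-21, let-7f and miR-30d and overlap for the other 5 miRNAs, and the ratio falls below 1 in AA-treated rats 1 and 2 for miR-143 and in AA-treated rat 4 for miR-21.

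Over all 368 other miRNAs with a mean of at least 10 normalized counts, the mean log2 ratio of miR-378 to the partner was lower in the AA-treated rats for 326 (88.6%), with a median difference of -0.79. All 4 AA-treated rats were below all 4 control rats for 186 partners (50.5%) and above them for 2. When each of the 370 miRNAs at this level, both arms included, was taken in turn as the reference, the median share of such partners was 8.13%, and miR-378 was 14th from the top. For miR-378*, the ratio was lower for 277 partners (75.3%), with a median difference of -0.41, and all 4 AA-treated rats were below all 4 control rats for 95 partners (25.8%).

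The scale on which libraries are compared sets the size of the difference. In edgeR's quasi-likelihood model over all 620 miRNAs, the log2 fold change of miR-378 was -0.79 (standard error 0.19) with median-of-ratios size factors and -0.75 (standard error 0.20) with TMM, the trimmed mean of log ratios. With total counts it was -0.53 (standard error 0.15), a 1.45-fold instead of a 1.73-fold difference. With miR-378 left out of the total it was -0.69 (standard error 0.17), and with both miR-378 and miR-21 left out it was -0.49 (standard error 0.15). For miR-378*, the log2 fold change was -0.44 (standard error 0.23) with median-of-ratios size factors and -0.17 (standard error 0.24) with total counts. The sign was negative for both arms on each of the 8 scales tried, which ended with upper quartile scaling at -0.89 and -0.53.

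The median log2 fold change of the other miRNAs with a mean of at least 10 normalized counts moved in parallel. It was 0.02 with median-of-ratios size factors, 0.07 with TMM, 0.29 with total counts, 0.14 with total counts without miR-378, and 0.35 without both miR-378 and miR-21. The difference between miR-378 and this median stayed between -0.84 and -0.80 on the 8 scales, and for miR-378* it stayed between -0.48 and -0.45. A change of scale moves all miRNAs of a library alike, so that this difference is nearly fixed by construction and is no sign of stability.

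**Figure D4:**
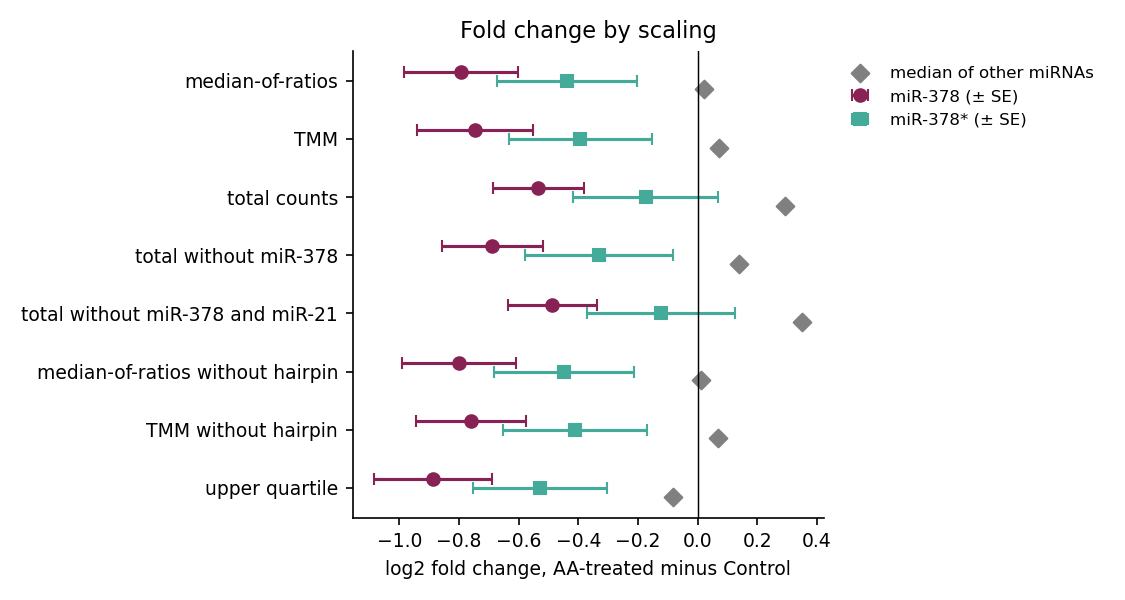
Log2 fold change, AA-treated minus control, of miR-378 and miR-378* with standard errors and of the median of the other miRNAs, under 8 ways of scaling the 8 libraries. The 3 values shift together, from -0.89, -0.53 and -0.08 with upper quartile scaling to -0.49, -0.12 and 0.35 with total counts without miR-378 and miR-21.

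The part that miR-378 itself plays in total-count scaling follows from its share. Taking it out of the total raises the scaled value of each other miRNA by 0.45 ± 0.0475 log2 units in a control library and by 0.30 ± 0.0336 in an AA-treated library (SD, n = 4 each). The mean difference is -0.15, which is the amount by which every other miRNA seems higher after AA treatment when miR-378 is kept in the total. Median-of-ratios size factors hardly used it. When they were computed without the hairpin, they moved by -0.282% to 0.521% in the 8 rats. The TMM factors moved by -4.46% to 5.79% in single rats, with movements in both directions in both groups.

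These shifts decide which other miRNAs are called. A miRNA was called at an adjusted p under 0.05 (edgeR quasi-likelihood test, Benjamini-Hochberg over all 620 miRNAs) together with a ratio of group means over 1.5. With median-of-ratios size factors, 55 of the 618 other miRNAs were called (8.9%), 36 higher and 19 lower after AA treatment (3.07% of the 618). Without the hairpin in the size factors, 56 were called, including all 55. The addition was miR-194, a tubule miRNA, at an adjusted p of 0.0515 with the hairpin included (edgeR, log2 fold change -0.77). Its normalized counts were 28345 to 36274 in the control and 11305 to 25740 in the AA-treated rats.

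With total counts, 69 of the other miRNAs were called (11.2%), 58 higher and 11 lower. With miR-378 left out of the total, 55 were called (8.9%), 41 higher and 14 lower. Of the 69, 17 that were higher lost the call, among them miR-199a-3p, a fibroblast miRNA, miR-872* and miR-674-5p. The 3 that gained it were lower after AA treatment. They were miR-152, miR-148b-3p and miR-140*, with log2 fold changes of -0.81, -0.79 and -0.73 and adjusted p of 0.0131, 0.0154 and 0.0252 with median-of-ratios size factors (edgeR). The calls made without miR-378 in the total and those made with median-of-ratios size factors shared 50 miRNAs, 90.9% of each set of 55. When miR-21 was left out as well, 78 were called, 67 higher and 11 lower, of which 47 were shared with the 55. With TMM, 53 were called, and 55 when it was computed without the hairpin, with 52 shared. The calls that TMM gained were miR-194*, miR-411 and miR-199a-3p, and the call it lost was miR-187*. Upper quartile scaling gave 56 calls, 30 higher and 26 lower, of which 49 were shared with the 55 made with median-of-ratios size factors.

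The sign of the difference was then set against abundance. Among the 61 other miRNAs with a mean of at least 10000 normalized counts, the log2 ratio of the group means had a median of -0.18 and was negative for 41, and 4 of the 61 were below the -0.79 of miR-378. Among the 307 with a mean of 10 to 10000, the median was 0.08, 139 were negative and 33 were below miR-378. Of the next 9 miRNAs by control share, 7 had negative values, and miR-192 alone was below miR-378. The fitted log2 fold change of miR-192 was -0.84 (standard error 0.36, edgeR adjusted p = 0.168). Its control values varied widely (coefficient of variation 66.0%), with control rat 4 highest, and its dependence on that rat was not tested. With total counts, the median was 0.04 for the more abundant and 0.35 for the less abundant miRNAs, so that the sign of the first depends on the scale.

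**Figure D5:**
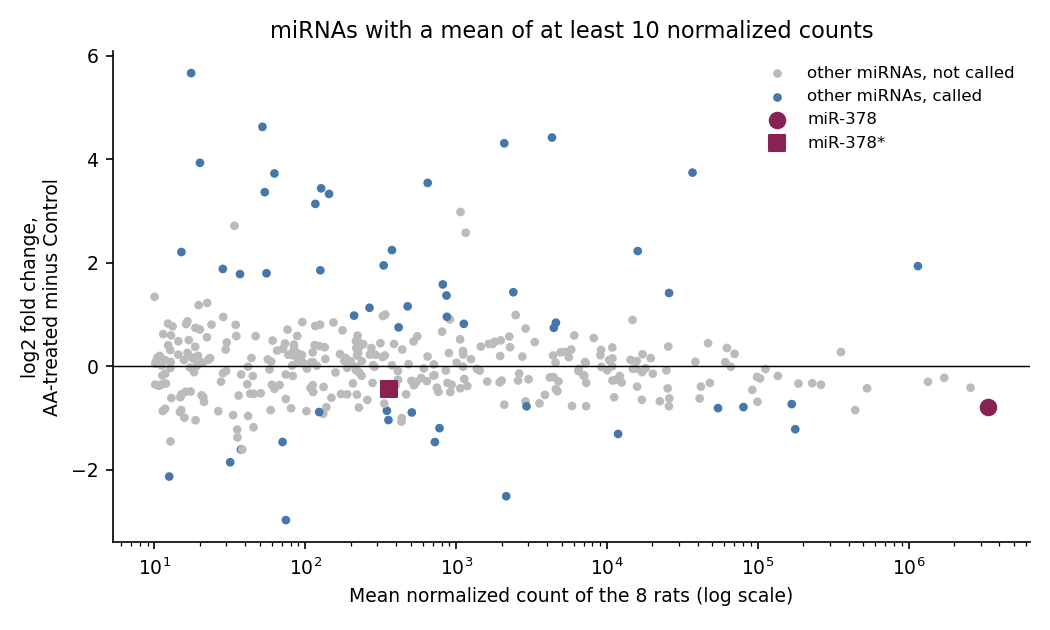
Log2 fold change, AA-treated minus control, with median-of-ratios size factors against the mean normalized count over the 8 rats, on a log scale, for miRNAs with a mean of at least 10. miR-378 lies farthest to the right, at -0.79, and miR-378* lies at -0.44 among miRNAs of middle abundance.

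The miRNAs whose levels followed miR-378 most closely over the 8 rats were found from Pearson correlations of log2 normalized counts among 369 candidates. These values are descriptions, since the 8 rats share the group difference and the same size factors. The highest were miR-375 (r = 0.978), a miRNA of endocrine and epithelial cells, miR-194* (r = 0.976), miR-26b (r = 0.966), miR-3545-3p (r = 0.956) and miR-125b* (r = 0.9499). miR-375 had 2730 to 4329 normalized counts in the control and 322 to 1006 in the AA-treated rats, a much larger difference than that of miR-378. miR-26b had 16209 to 20413 and 12569 to 14741, a smaller difference (edgeR log2 fold change -0.39 ± 0.16 SE, adjusted p = 0.167). When deviations from the group means were compared, which removes the group difference, miR-375 (r = 0.863), miR-194* (r = 0.862), miR-26b (r = 0.839), miR-125b* (r = 0.800) and miR-653 (r = 0.777) were highest. This order depends on the scale, since 2 of these 5 were among the closest 5 when counts were scaled to the total without miR-378. The other arm, miR-378*, was 28th of 369 for levels (r = 0.818) and 20th for deviations (r = 0.669).

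Other miRNAs with described roles in mitochondrial, lipid, insulin or glutamine metabolism were examined as a list of 21 names, of which 19 were in the table. Of these, 3 were called, all lower (edgeR), and 16 were not, beside 3.07% called lower and 8.9% called in either direction among the 618 miRNAs outside the hairpin. Over the 17 with a mean of at least 10 normalized counts, the median log2 fold change was -0.29. It was 0.02 over all 368 miRNAs other than the hairpin at this level. The -0.29 is the value of miR-210 itself (standard error 0.54). The list was written with earlier results of these data known, so that its calls and its median are descriptions only. miR-103 and miR-107 lie in introns of pantothenate kinase genes and regulate insulin sensitivity. miR-103 had 189313, 207288, 246147 and 346608 normalized counts in control rats 1 to 4 and 144723, 97758, 98198 and 85878 in AA-treated rats 1 to 4 (edgeR log2 fold change -1.21 ± 0.23 SE, adjusted p = 0.00362). miR-107 had 2948, 3345, 3400 and 5069 in the control and 2436, 2294, 2208 and 1710 in the AA-treated rats (log2 fold change -0.77, standard error 0.22, adjusted p = 0.0386). In both, the 4 control rats were above the 4 AA-treated rats. The 2 miRNAs are near-identical in sequence, so that their separate counts are uncertain, and miR-107 was not called with TMM, with any of the total-count scales, without control rat 2, 3 or 4, without AA-treated rat 3 or 4, or without both rats numbered 4, among other settings.

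The largest fitted value in the list was upward and rested on 1 rat. miR-122, the main miRNA of liver and a regulator of lipid metabolism, had 735, 60.4, 90.1 and 73.3 normalized counts in control rats 1 to 4 and 10.1, 7519, 42.4 and 16.3 in AA-treated rats 1 to 4 (edgeR log2 fold change 2.98 ± 1.61 SE, adjusted p = 0.283). AA-treated rat 2 was far above all other rats, and the other 3 AA-treated rats were below all control rats. Without AA-treated rat 2 the sign turned and miR-122 was called lower (edgeR log2 fold change -3.38 ± 0.86 SE, adjusted p = 0.0219). The other arm, miR-122*, had 23.9, 4.39, 4.74 and 2.44 normalized counts in the controls and 236 in AA-treated rat 2, was not counted in AA-treated rats 1, 3 and 4, and was also called lower without that rat.

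miR-375, a regulator of insulin secretion, fell most among the called members (edgeR log2 fold change -2.51 ± 0.31 SE, adjusted p = 1.28e-04). miR-33, a miRNA of the Srebf2 gene that regulates cholesterol export and fatty acid oxidation, had 1204 to 1383 normalized counts in control rats 1 to 3 and 942 in control rat 4, and 665 to 1272 in the AA-treated rats (adjusted p = 0.527). miR-210, which is induced by hypoxia and represses iron-sulphur cluster assembly, had 1687 in control rat 4 and 1187 in AA-treated rat 4, against 305 to 482 in the other 6 rats (adjusted p = 0.762). The rats numbered 4 thus stood apart in this miRNA in both groups. Control rat 4 was also the control rat with the highest normalized count of miR-378, miR-378*, miR-103 and miR-107. Without both rats numbered 4, the log2 fold change was -0.68 (standard error 0.18) for miR-378 and -0.26 (standard error 0.18) for miR-378*.

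The tissue and its other cells were checked with miRNAs typical of them, and their calls stand beside the 8.9% called among all 618 other miRNAs. Of 6 kidney epithelial miRNAs, 1 was called, miR-204, which was lower after AA treatment but was not called with total counts, and their summed normalized counts were 3512818 to 4203377 in the control and 2675246 to 3855778 in the AA-treated rats. Most of this sum was miR-30a and miR-10a-5p, at edgeR log2 fold changes of -0.22 and -0.30 (adjusted p = 0.496 and 0.460). miR-192 added 328824 to 1124303 normalized counts in the control and 205633 to 388616 in the AA-treated rats. Its coefficient of variation among the controls was 66.0%, and control rat 4 was highest. The tubule miRNAs miR-192, miR-194 and miR-204 had edgeR log2 fold changes of -0.84, -0.77 and -0.86 (adjusted p = 0.168, 0.0515 and 0.0357). The same fit gave -0.79 for miR-378. How far the miR-192 value rests on control rat 4 was not tested. The remaining epithelial member, miR-10b, was at -0.0076 (edgeR adjusted p = 0.988). Of 3 leukocyte miRNAs, miR-142-3p and miR-223 were called higher, with sums of 12705 to 17005 and 28333 to 55201, at most 0.497% and 2.41% of the miR-378 count of the same rat. The 3 striated muscle miRNAs, miR-1, miR-133a and miR-206, summed to 492 to 829 and 440 to 622, at most 0.0187% and 0.0244% of the miR-378 count, and none was called. Neither of the 2 red cell miRNAs, the endothelial miR-126 or the 2 smooth muscle miRNAs was called. The red cell sums were 6910 to 11910 and 2172 to 8116, those of smooth muscle 2552498 to 3542001 and 1959385 to 2668709, and miR-126 had 88431 to 139802 and 64017 to 114120. The smooth muscle sum was almost entirely miR-143, at a log2 fold change of -0.41, whereas miR-145 was at 0.22 (edgeR adjusted p = 0.2001 and 0.496). The part of these cells in the lower level of miR-378 was not tested.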

How the data were processed

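Small RNA from kidney pieces of 8 rats was sequenced with 36-cycle reads on an Illumina Genome Analyzer II. The authors masked adaptors, removed contaminated reads, grouped identical reads and counted known rat miRNAs of miRBase with the miRanalyzer webserver at default parameters, and CASAVA 1.7 is named in the submitters' processing notes. The deposited values are read counts per mature miRNA and rat, neither normalized nor pooled, with totals of 13412373 to 15616670. Each of the 8 columns was matched to a rat by its name. Between replicates of a group, the chi-square over miRNAs was at least 393.9 times its degrees of freedom, so that no library repeats another of its group.

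The counts were scaled by median-of-ratios size factors, and all 620 miRNAs were fitted with edgeR 4.0.16 in R 4.3.3 (quasi-likelihood test, no covariate, no filter, Benjamini-Hochberg adjustment), with scripts checked on simulated data. Correlations, and arm ratios compared over hairpins, used a pseudocount of 1. Alternatives were TMM, upper quartile and total-count scaling, median-of-ratios and TMM scaling without the hairpin, total counts without miR-378 or without miR-378 and miR-21, DESeq2 1.42.0, 2 filters, a replicate block and omitted rats. Python 3.11.15 was used for the remaining steps. The members and lists were chosen with earlier results of these data known. The miRNAs named were, by rule, both arms, the 5 with the highest control share, the 5 closest to miR-378 by each correlation, called members of the metabolic list, and up to 10 whose call changed with miR-378 out of a scale. Others, such as miR-122, miR-33, miR-210, miR-192 and let-7f, were named after their values were seen.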

Additional observations from a re-analysis of the deposited data

Results flagged for a closer look

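In 8 of 68 groups of 4 rats examined with Dixon's test, 1 rat lay far from the other 3, where chance marks about 1 group in 20. In 4 of these it was a rat numbered 4, and the other 4 concern the arms of miR-122, examined after their values were seen. miR-210, flagged in control rat 4, was also named after its values were seen. The chance rate therefore does not hold for miR-210 or for the arms of miR-122. The other groups are not independent, since the ratios share miR-378 and miR-653 was picked by its correlation with miR-378. The count of flagged groups is thus a description and shows no excess over chance. In control rat 4, miR-653, one of the miRNAs closest to miR-378 in its deviations from the group means, had 1653 normalized counts, against 843 to 971 in the other control rats, a gap of 0.842 of the range. In the same rat, miR-210 had 1687 normalized counts, against 310 to 408, a gap of 0.929 of the range. In AA-treated rat 4, the ratio of miR-378 to miR-30e was 6.89, with 4.99 to 5.18 in rats 1 to 3 of that group, a gap of 0.901 of the range. The ratio of miR-378 to miR-101a was 17.3 in this rat, against 8.66 to 10.04, a gap of 0.840 of the range. miR-122 had 735 normalized counts in control rat 1, against 60.4 to 90.1 in the other controls, and 7519 in AA-treated rat 2, against 10.1 to 42.4. miR-122* had 23.9 and 236 in the same rats, against 2.44 to 4.74 and 0. The counts, shares, normalized counts and arm ratio of miR-378 and miR-378* held no such rat. The values of the hairpin without both rats numbered 4 are given in the report.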

How the results depend on the processing

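The fitted log2 fold change of miR-378 and of miR-378* kept its negative sign under all alternatives run. That of miR-378 was -0.53 with total counts and -0.49 with total counts without miR-378 and miR-21. That of miR-378* was -0.17 and -0.12 (standard errors 0.24 and 0.25). With miR-21 left out of the total, the mean share of miR-378* was 0.00268% in both groups, which overlapped. With 1 rat left out, the log2 fold change lay between -0.89 and -0.73 for miR-378 and between -0.53 and -0.27 for miR-378*. The difference in the share of miR-378 lay between -9.44 and -7.54 percentage points, and that in the arm ratio between 0.204 and 0.339 per 10000. The median log2 fold change of the other miRNAs, 0.02 in the report, was 0.072 with TMM and 0.067 with TMM without the hairpin, 0.29 with total counts, 0.14 without miR-378 in the total, 0.35 without miR-378 and miR-21, and -0.083 with upper quartile scaling. It was 0.011 with at least 10 counts in at least 4 rats, 0.010 with the filter of edgeR, 0.070 without both rats numbered 4, and -0.012 to 0.038 with 1 rat left out. Between scales the median moves by construction, since a change of scale moves all miRNAs of a library together. For the filters and the omitted rats the cause was not tested.

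The 55 calls among the other miRNAs became 73 with DESeq2 and 39 to 61 with 1 rat left out, the fewest without control rat 3. Of the metabolic list, 2 to 5 members were called with 1 rat left out, with 5 called without AA-treated rat 2, miR-122 and miR-122* in addition to the 3 called with all rats. Of the 5 miRNAs closest to miR-378 in deviations from the group means, 2 were among the closest 5 when counts were scaled to the total without miR-378. Rats of both groups carry the numbers 1 to 4. Over 370 miRNAs, deviations of rats with the same number correlated at -0.011, 0.14, 0.12 and 0.34, against a mean of -0.048 for other pairs, and the AA-treated rats numbered 3 and 4 matched best the control rat of their own number. Since 1 of the 4 pairs was not above 0.1, the rats were not treated as paired, and what same-numbered rats share was not tested. With the replicate number as a block, 73 other miRNAs were called, the log2 fold change was -0.79 for miR-378 and -0.42 for miR-378*, and the median of the other miRNAs was 0.00204. In that fit 2 members of the metabolic list were called, without miR-107. Depth limits miR-378* alone of the 2 arms, at 268 to 461 counts per rat.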
